A study of Mus musculus with 7 samples.

Results

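The ribosomal protein genes of the autosomes were examined in chromatin-associated RNA (ChrRNA-seq), the fraction of RNA that stays bound to chromatin and is rich in nascent, unspliced transcripts. They were taken as every gene of the count files whose symbol is Rpl or Rps followed by a digit, without pseudogenes and without the Rps6k kinases. Genes on chromosomes 5 and 8, on chromosome 11 from 100 Mb and on chromosome 12 from 80 Mb were left out. The rule gave 71 of 22556 genes, out of 83 such symbols on all chromosomes, with 8 others in the regions left out and 4 on the X chromosome. By symbol, 32 encode proteins of the large subunit, 29 proteins of the small subunit and 9 paralogs of such proteins, while Rps19bp1 encodes a binding partner of Rps19 and no ribosomal protein.

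All 7 libraries were made from female embryonic stem cells, kept undifferentiated, of an F1 cross between mouse strains, 129/Sv, here Dom, and CAST/EiJ, here Cast. A TetOn promoter replaces the promoter of Xist on the Dom X chromosome in iXist-ChrX-Dom (n = 4) and on the Cast X chromosome in iXist-ChrX-Cast (n = 3). Both lines were grown on inactivated fibroblast feeders, which were depleted by pre-plating, and both received 1 µg/mL doxycycline for 10 days, so Xist was induced in every library and no uninduced library was analysed here. Each line is a single clone, so a difference between the lines cannot be told apart from a difference between clones. For these undifferentiated cells after the same induction the study names 4 replicate experiments of iXist-ChrX-Dom and 3 replicates of iXist-ChrX-Cast. The sources used here do not say whether the libraries came from separate cultures. The p-values then measure only the spread between these libraries, which may be technical. For replicates 3 and 4 of iXist-ChrX-Dom the description field gives d1, against 10 days in the title and treatment fields, which were followed here. For replicates 1 and 2 of iXist-ChrX-Cast the clone is spelled with 1 character changed in the name of the deposited data. In both lines the deposited count data of replicates 1 and 2 and of the later replicates are also named by different schemes, and the replicate sets so formed were compared as well. In bulk RNA, fewer cells of a type and less RNA per cell cannot be told apart.

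Libraries held 14877384 to 24309806 counted fragments, of which 44.2% to 46.4% could be assigned to an allele. Of 10 markers of embryonic stem cells all were detected, Esrrb at 399 to 555 and Nanog at 55.1 to 82.5 CPM (fragments of a gene per 1000000 counted fragments). The 10 feeder fibroblast markers summed to 62.4 to 81.2 CPM. Fbn1 was highest at 30.4 to 40.4, then Col1a2 at 9.34 to 15.3, with Col1a1 at 3.43 to 8.42 and Lum lowest at 0 to 0.205. Of 6 neural markers, Sox1 was at 0 everywhere and the sum was 27.3 to 57.6. The 6 markers of primitive endoderm summed to 270 to 461, mostly Lama1 and Col4a1.

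Ribosomal proteins join ribosomal RNA in the nucleolus to form the small subunit, which decodes the messenger RNA, and the large subunit, which joins amino acids. Nearly all are needed in equal numbers, and growing cells such as embryonic stem cells transcribe their genes heavily. Their mRNAs typically begin with a tract of pyrimidines (a terminal oligopyrimidine tract, TOP) through which mTOR signalling controls translation. Many of their introns carry small nucleolar RNAs (snoRNAs), which guide chemical modification of ribosomal RNA and are released from the spliced intron.

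The bases around the annotated transcript start are shown for some members because the tract is a hallmark of the family. RefSeq (GRCm38.p6) gave a start for 53 of the 71 members, and several have more than 1 annotated start. A start with C as its first base followed by only C or T up to base 5 was found in 12 of these 53 members (22.6%) and in 2.97% of 26972 other genes. For 1 of the 12, Rps27rt, the annotated start is on chromosome 9, another locus than the one counted under that name. A run of at least 5 pyrimidines that opens with C lay within 5 bases before to 10 bases after the start in 27 members (50.9%) and in 21.1% of other genes. For the mitochondrial ribosomal proteins the same shares were 0 of 69 and 24.6%. Rpl27a and Rpl7a have runs of 19 and 21 pyrimidines over the first base but open there with T, so they missed the first count. Whether the annotated starts are those used in these cells was not tested, so a member outside these counts is not shown to lack the tract. Each window covers 15 bases on each side of the start, with the run of pyrimidines over the first transcribed base in capitals. The first 4 members carry the tract at the annotated start, and Rpl11 and Rps12 do not.
Rps6 (chr4:86857353-86857382, minus strand): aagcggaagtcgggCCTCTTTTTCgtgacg
Rps18 (chr17:33955651-33955680, minus strand): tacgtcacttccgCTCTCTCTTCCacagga
Rpl15 (chr14:18270972-18271001, minus strand): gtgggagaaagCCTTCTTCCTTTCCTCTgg
Rpl35 (chr2:39005117-39005146, minus strand): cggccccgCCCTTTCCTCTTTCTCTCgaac
Rpl11 (chr4:136053379-136053408, minus strand): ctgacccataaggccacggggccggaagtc
Rps12 (chr10:23787195-23787224, minus strand): taccgtcatgcggccaccgccggccttttc

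Members are short genes that lie on 16 chromosomes. Their median span was 2858 bp (853 to 11773 bp), against 15760.5 bp for all genes counted. The paralogs Rpl10l and Rps4l have a single exon in GENCODE M21, as retrocopies do. A gene named Snor or Scarna lay within 17 members on the same strand, 25 such genes in all and up to 4 in 1 member (Rpl13a). The count files listed 3 entries with such names, 0 of them inside a member, so fragments of these snoRNAs could only be counted toward their host. One snoRNA gene each is shown for 5 of the 6 hosts that were lower in replicates 3 and 4. Rpl23a holds 3, of which the one with both boxes is shown, and that of the sixth host, Rpl17, is not shown. Snora genes are of the H/ACA class, which guides pseudouridylation, with the ACA near the end in capitals. Snord genes are of the C/D class, which guides ribose methylation, with the C box (TGATGA) and the D box (CTGA) in capitals. Sequences are from GENCODE M21 on mm10.
Snora64 in Rps2 (chr17:24720772-24720905, plus strand): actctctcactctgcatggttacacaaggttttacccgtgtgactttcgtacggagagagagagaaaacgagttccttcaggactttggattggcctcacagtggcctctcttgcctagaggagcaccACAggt
Snora65 in Rpl12 (chr2:32963291-32963420, plus strand): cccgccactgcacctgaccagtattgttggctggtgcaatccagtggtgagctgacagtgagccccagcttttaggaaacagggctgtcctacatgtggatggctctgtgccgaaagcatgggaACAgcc
Snord73a in Rps3a1 (chr3:86138791-86138858, minus strand): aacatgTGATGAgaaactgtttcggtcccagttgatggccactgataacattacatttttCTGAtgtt
Snord14a in Rps13 (chr7:116333171-116333257, minus strand): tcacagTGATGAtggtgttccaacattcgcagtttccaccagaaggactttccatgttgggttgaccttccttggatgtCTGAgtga
Snord4a in Rpl23a (chr11:78181686-78181756, minus strand): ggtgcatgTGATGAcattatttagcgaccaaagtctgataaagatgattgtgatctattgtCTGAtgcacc

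Which members could be measured was set by the annotation. Rpl26, Rpl30, Rpl34, Rps27 and Rps27rt had 0 to 9 fragments in any library. Each was covered over 97.8% to 100% of its span by another entry on the same strand, such as Gm15772 over Rpl26, Gm12191 over Rpl30 and Rpl34-ps1 over Rpl34. Rps27 and Rps27rt cover each other (chr3:90212666-90213648) and both had 0 fragments in all 7 libraries. Fragments over more than 1 gene were not counted, so these values say nothing on transcription of the 5 genes. The other 66 members had no such overlap, and all 66 passed the filter on low counts.

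Levels were compared as CPM per kb of gene, introns included. Rps12 of the small subunit was highest at 135 ± 18.002 (SD, n = 7), followed by the large subunit genes Rpl4 at 111 ± 8.81, Rpl3 at 110 ± 17.3, Rpl13a at 89.0 ± 14.04 and Rpl8 at 85.1 ± 19.2. Rpl4, Rpl3 and Rpl8 encode proteins close to the catalytic core, and Rpl13a a protein that also acts in translational repression outside the ribosome. The ranges of all these genes overlapped, since Rps12 spanned 109 to 159, Rpl4 97.8 to 123, Rpl3 79.6 to 130, Rpl13a 69.6 to 114 and Rpl8 53.9 to 115. The median was 35.6 over the 32 large subunit genes and 36.0 over the 29 small subunit genes, with the genes covered by other entries included.

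Paralogs were mostly low, with a median of 9.26 over 9 genes. Rpl3l, the heart and skeletal muscle form of Rpl3, was at 0.101 ± 0.0335, with 7 to 24 fragments in a library. Rps19bp1 was at 0.964 ± 0.188, and Rpl39l and Rpl10l, the testis forms of the X-linked Rpl39 and Rpl10, were at 1.26 ± 0.336 and 3.71 ± 0.792. Rpl22l1 was at 17.1 ± 2.38, above its partner Rpl22 at 9.11 ± 1.26, with no overlap (14.8 to 21.2 against 7.14 to 10.4). This order comes from the division by length, since undivided levels were 32.5 CPM for Rpl22l1 and 87.9 CPM for Rpl22. Rpl29 was the lowest of the large subunit genes that could be measured, at 4.60 ± 0.891. Of the 10 members highest per kb, 7 were also among the 10 highest when levels were not divided by length.

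**Figure D1:**
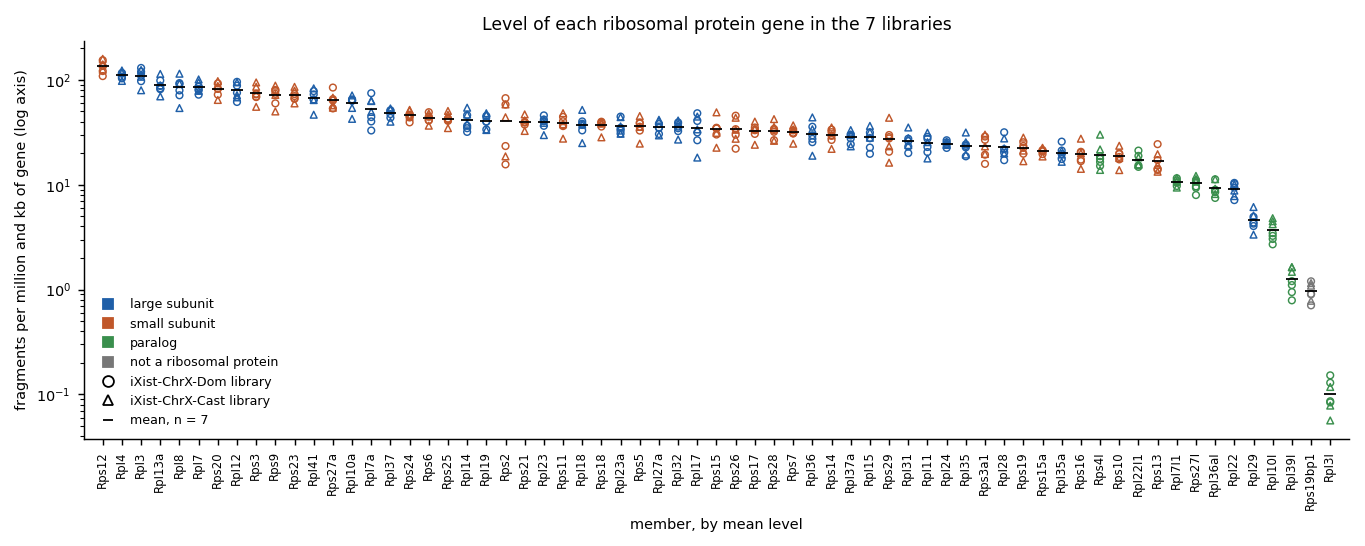
Level of 65 of the 66 members that no other entry covers, as CPM per kb of gene on a log axis, with a symbol per library, a bar at the mean and colours for the kind of protein. Rps12, Rpl4 and Rpl3 lead at 110 to 135, most subunit genes sit between 16.8 and 89.0, and paralogs fall to 0.101 for Rpl3l.

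The members together took 0.824%, 0.841%, 0.831% and 0.768% of fragments in iXist-ChrX-Dom replicates 1 to 4. In iXist-ChrX-Cast they took 0.673%, 0.890% and 0.932% in replicates 1 to 3. The means were 0.816 ± 0.0326% (SD, n = 4) and 0.832 ± 0.139% (SD, n = 3), so the lines overlapped and the spread was wider in iXist-ChrX-Cast. iXist-ChrX-Cast replicate 1, also the shallowest library, was the lowest of the 7 libraries for 36 of 66 members, against 19.1% of all genes. Replicate 3 of that line was the highest for 30 members, against 20.6% of all genes. The 68 mitochondrial ribosomal proteins, which form the ribosome of mitochondria, were also lowest in iXist-ChrX-Cast replicate 1 but ranged only from 1797 to 1923 CPM in sum. Translation factors whose mRNAs carry a TOP summed to 5074 to 6072, lowest in iXist-ChrX-Cast replicate 1, and ribosome biogenesis genes to 8078 to 10054, lowest in iXist-ChrX-Dom replicate 4. The wide range was not particular to the members. Ribosomal proteins with another kind of name, such as Rplp0 and Rack1, summed to 642 in iXist-ChrX-Cast replicate 1 and 1206 in replicate 3. Abundant cytoplasmic mRNAs such as Actb and Gapdh summed to 3292 to 4930.

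**Figure D2:**
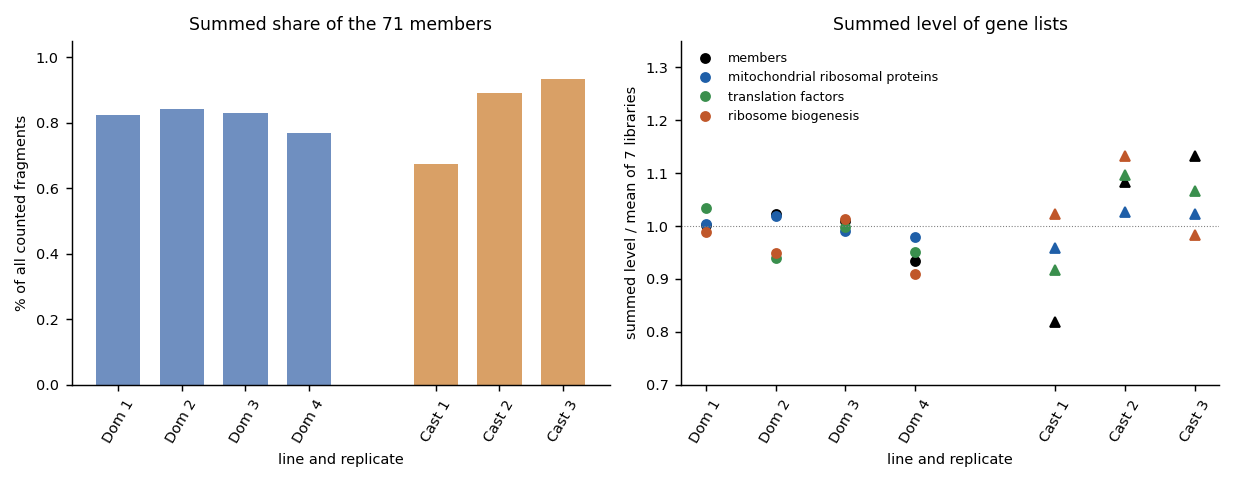
Left, share of counted fragments from the 71 members in each library, in percent. Right, summed level of 4 gene lists in each library divided by its mean over the 7 libraries, with circles for iXist-ChrX-Dom and triangles for iXist-ChrX-Cast. Of these 4 lists the members range most, from 0.673% of fragments in iXist-ChrX-Cast replicate 1 to 0.932% in replicate 3, while mitochondrial ribosomal proteins stay near 1. Lists not drawn range as widely.

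The lines were compared next, to see how members stood in the cells with Xist on either X chromosome. The difference is the log2 fold of iXist-ChrX-Dom over iXist-ChrX-Cast from edgeR's quasi-likelihood test, and levels from here on are CPM scaled by TMM. At an adjusted p under 0.05, 0 of 66 members were called, and over all genes 2.92% were called. At an unadjusted p under 0.05 there were 5 members, against 2638 of all 15186 genes, and DESeq2 called 1, with 7.2% called over all genes. Members had a median difference of -0.05, against -0.0028 for all 15186 genes tested, and 20 were positive and 46 negative. Short genes leaned the same way. Those under 5 kb had a median of -0.117, with 603 positive and 1137 negative. Mitochondrial ribosomal proteins had a median of -0.115, with 22 positive and 46 negative. The median was -0.06 for the large subunit (29 tested), -0.04 for the small subunit (28 tested) and -0.19 for paralogs (8 tested). Of the 66, 59 lay within 0.3 of 0, and the median SE was 0.148. In simulated data edgeR found 80% of 1.5-fold and 99% of 2-fold differences of this comparison. Those data held no difference between replicate sets, and only genes with higher counts were changed. In the real data that difference stays in the spread of this test, so the shares may be too high for it.

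The member nearest to a call was Rpl39l. Its CPM was 4.34, 3.66, 5.70 and 5.15 in iXist-ChrX-Dom and 8.01, 7.79 and 6.71 in iXist-ChrX-Cast, with no overlap. Its log2 difference was -0.67 (SE 0.193, edgeR adjusted p = 0.0938). With the replicate number as a block the difference was -0.73 (edgeR adjusted p = 0.0135), with DESeq2 -0.68 (adjusted p = 0.0258) and within replicates 1 and 2 -0.98 (edgeR adjusted p = 0.0108). Whether the replicate numbers pair the libraries is not known. With the replicate set as a covariate 3 members were called, Rpl39l at -0.71, Rpl10l at -0.53 and Rpl15 at -0.33. The share of all genes called in that run was not worked out, so this count says nothing particular to the members. These 4 alternative runs called Rpl39l, and the 10 others did not. Rpl10l had 2.75 to 3.46 CPM in iXist-ChrX-Dom and 4.46 to 4.99 in iXist-ChrX-Cast, a log2 difference of -0.55 (SE 0.179, edgeR adjusted p = 0.134). Both are low genes, with 90 to 153 and 54 to 98 fragments in a library. The other members with an unadjusted p under 0.05 were Rpl15 at -0.36, Rpl14 at -0.34 and Rps27l, a p53 target, at -0.29. They were chosen after their values were seen, and edgeR's adjusted p was 0.243 to 0.284.

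Members with known roles beyond the ribosome or in disease, and other listed members, were compared by mean ± SD. Rpl3 was at 638 ± 81.9 CPM in iXist-ChrX-Dom (n = 4) and 586 ± 107 in iXist-ChrX-Cast (n = 3), and Rps3, which also acts in DNA repair, at 410 ± 17.6 and 459 ± 107. Rpl13a was at 277 ± 24.5 and 290 ± 60.02. Rpl23 and Rpl11, which bind Mdm2 and thereby stabilise p53, were at 201 ± 21.2 and 182 ± 25.4, and at 84.7 ± 13.96 and 85.5 ± 20.3. Rps6, the substrate of the S6 kinases, was at 143 ± 13.8 and 142 ± 14.7. Rps14 and Rps19, whose loss causes anaemia in humans, were at 119 ± 12.4 and 115 ± 22.3, and at 115 ± 12.9 and 113 ± 25.1. Rps27a, made as a fusion with ubiquitin, was at 146 ± 27.7 and 133 ± 16.2, and Rpl10a at 163 ± 2.31 and 144 ± 31.5. Rpl22 was at 88.9 ± 15.2 and 86.5 ± 7.88, Rpl22l1 at 33.2 ± 5.85 and 31.6 ± 1.85, and Rpl7l1 at 92.8 ± 6.70 and 93.4 ± 6.602. For each of these genes the lines overlapped, and none was called.

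Ribosomal protein genes left out by the rule had these values. The 4 on chromosome 5 (Rpl5, Rpl6, Rpl9 and Rpl21) had log2 differences of -0.66 to -0.38 with 1 called, Rpl21. The 2 on chromosome 8 had 0.33 and 0.37, and the 2 on distal chromosome 11 had 0.37 and 0.46, with 0 of these 4 called by edgeR and 3 of them at an unadjusted p under 0.05. The 4 on the X chromosome lay between -0.32 and -0.01, with 0 called by edgeR and 0 at an unadjusted p under 0.05. Whether these groups differ from the members was not tested.

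Replicates 3 and 4 were then compared with replicates 1 and 2, with the line in the model. Titles and treatment fields give both sets the same treatment, but the d1 in the description field of iXist-ChrX-Dom replicates 3 and 4 leaves a doubt on their days of doxycycline that bears on every value of this comparison. Of 66 members, 14 were called, 7 higher and 7 lower in replicates 3 and 4, and over all genes 30.3% were called, 16.3% higher and 14% lower. Members had a median log2 difference of 0.11, against 0.01 for all genes. Large subunit genes had 4 higher and 4 lower of 29, small subunit genes 3 and 3 of 28, and paralogs 0 and 0 of 8, with 2 paralogs at an unadjusted p under 0.05 by edgeR.

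Rps2 moved farthest. Its CPM was 122 and 107 in iXist-ChrX-Dom replicates 1 and 2 and 85.9 and 111 in the same replicates of iXist-ChrX-Cast, but 29.5 and 43.4 in iXist-ChrX-Dom replicates 3 and 4 and 33.7 in iXist-ChrX-Cast replicate 3. All 3 libraries of the later set thus lay below the other 4. The log2 difference was -1.61 (SE 0.127, edgeR adjusted p = 1.96e-06). The gene (chr17:24720062-24721927) holds Snora64, shown above, in its span. The Cast share of its allelic fragments also parted by set, at 31.9% to 39.6% in replicates 1 and 2 and 42.5% to 45.2% in replicates 3 and 4, on 199 to 1268 allelic fragments. That was seen after the values were known and was not tested.

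Among called members the next largest falls were those of Rps3a1, Rpl17, Rps13, Rpl23a, Rpl12 and Rpl15. Rpl28 at -0.37 and Rpl7a at -0.36 were not called. Rps3a1 went from 115 to 145 CPM to 74.5 to 92.5, and its log2 difference was -0.59 (SE 0.101, edgeR adjusted p = 0.000618). Rps13 went from 43.4 to 64.7 CPM to 34.6 to 37.8, and its log2 difference was -0.52 (SE 0.117, edgeR adjusted p = 0.00372). Rpl23a, which helps dock the signal recognition particle, went from 91.3 to 119 CPM to 78.7 to 87.8. Its log2 difference was -0.37 (SE 0.100, edgeR adjusted p = 0.0124). In these 3 the sets did not overlap. They did overlap in Rpl17 at -0.58, Rpl12, part of the stalk base, at -0.35 and Rpl15 at -0.31, whose edgeR adjusted p were 0.0234 to 0.0359. Without iXist-ChrX-Cast replicate 3 the value of Rpl17 was -0.21. Rpl17 lost its call with DESeq2, within iXist-ChrX-Dom alone and when any of 4 libraries was left out.

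Of the called rises that of Rps29 was largest. Rps29 went from 24.9 to 40.0 CPM to 41.6 to 61.9, with a log2 difference of 0.61 (SE 0.149, edgeR adjusted p = 0.00667). Rpl11 went from 63.8 to 88.6 CPM to 93.6 to 104, with 0.42 (SE 0.101, edgeR adjusted p = 0.00604). Rpl8 rose by 0.42, Rps15 by 0.38, Rpl18 by 0.35, Rps19 by 0.34 and Rpl22 by 0.28 on the log2 scale. The sets overlapped in Rpl8 and Rpl18, not in the others. Several of these values rested on 1 library. Without iXist-ChrX-Cast replicate 3 the log2 difference was 0.30 for Rps29, 0.15 for Rpl18 and 0.11 for Rps15, and without iXist-ChrX-Dom replicate 1 it was 0.17 for Rpl22, with no call in any of these. Over the 66 members the sets did not overlap in 12, 9 of them called, and over all genes they did not in 29.4%.

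**Figure D3:**
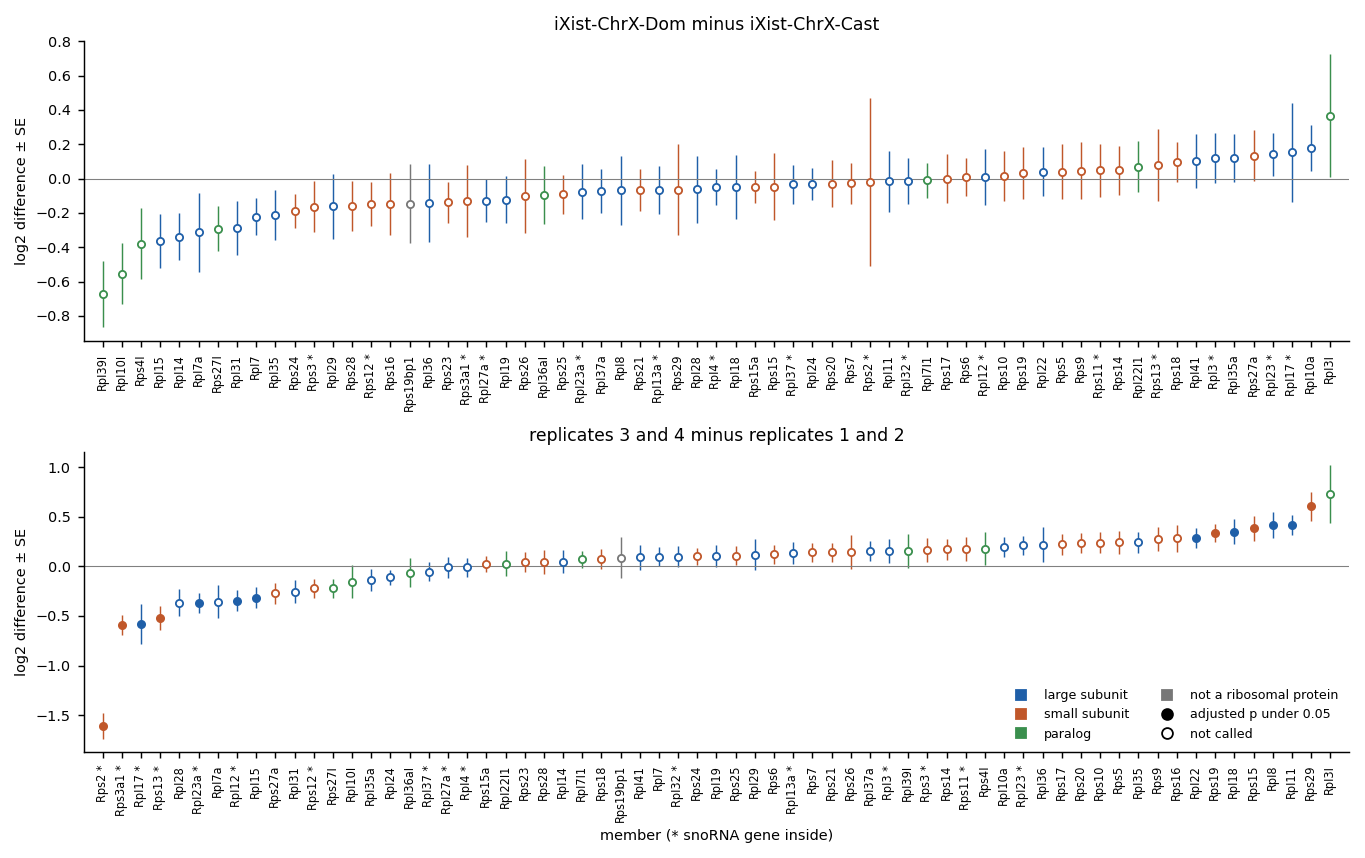
Log2 difference ± SE of 65 of the 66 tested members between the lines (top) and between the replicate sets (bottom), sorted by value, with filled symbols for an edgeR adjusted p under 0.05 and a star for members with a snoRNA gene inside. No symbol is filled in the upper panel; in the lower panel 14 are, with Rps2 at -1.61 and 6 of the 7 lower ones starred.

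Of the 7 members lower in replicates 3 and 4, 6 hold a snoRNA gene, all but Rpl15, and of the 7 higher ones 0 do. Among the 17 hosts 6 were lower and 0 higher by edgeR, with 8 at an unadjusted p under 0.05, and their median log2 difference was -0.01. Over all genes 14% were lower, 16.3% higher and 6358 of 15186 at an unadjusted p under 0.05. DESeq2 gave 5 lower and 0 higher. Among the 49 tested members without such a gene 1 was lower and 7 higher, with a median of 0.12. Whether hosts differ from other members was not tested. Hosts that were not called include Rpl13a, Rpl3, Rps3 and Rpl4, with values of 0.13, 0.16, 0.16 and -0.01. Counting snoRNA genes of any name as well, a choice made after seeing the data, gave 20 tested hosts with 6 lower and 0 higher. The 72 other genes with a Snor or Scarna gene inside had 10 lower and 2 higher, with a median of -0.11. Both H/ACA and C/D hosts are among those that fell, the former being Rps2 and Rpl12.

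The count of members that rose rested on single libraries. Without iXist-ChrX-Cast replicate 3, 6 members were called, 1 higher (Rpl11) and 5 lower, of which the hosts were Rps2, Rps3a1 and Rps13. Within iXist-ChrX-Dom alone 9 were called, 2 higher and 7 lower, and 5 of the latter were hosts. Without iXist-ChrX-Dom replicate 3 there were 4 higher and without replicate 2 of that line 11. Without iXist-ChrX-Dom replicate 4 or iXist-ChrX-Cast replicate 2 there were 4 lower, while 11 were lower when replicate 1 of iXist-ChrX-Cast was left out. Without iXist-ChrX-Cast replicate 2, 1 host was higher. Among members with no snoRNA gene, 0 were lower without iXist-ChrX-Dom replicate 4 or iXist-ChrX-Cast replicate 2, and leaving out replicate 1 of the latter line gave 4. With no filter on low counts 24 were called, 13 higher and 11 lower. Rps2, Rps3a1, Rps13 and Rpl11 were called in every alternative run. The share of all genes called was not worked out for these runs, so their counts cannot be set against it.

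Other lists had calls between the sets as well. Of 68 mitochondrial ribosomal proteins 6 were higher and 5 lower in replicates 3 and 4, and of 44 ribosome biogenesis genes 2 and 4. Of 15 TOP translation factors 1 was higher and 1 lower, and of 6 tested ribosomal proteins with another kind of name, such as Rplp0 and Rack1, 3 and 1. Of 12 regulators such as Myc, Mtor and Larp1, 2 were higher and 0 lower, with 6 at an unadjusted p under 0.05 by edgeR. Of 10 abundant cytoplasmic mRNAs such as Actb and Gapdh 0 were higher and 3 lower, and of 10 nuclear RNAs such as Malat1 2 were higher and 1 lower. Of 5 tested primitive endoderm markers 4 were higher and 1 lower, of 9 tested feeder markers 1 and 1, of 10 stem cell markers 2 and 0, and of 3 tested neural markers 1 and 2. By length, the median log2 difference was 0.03 for genes under 5 kb and -0.03 for genes over 100 kb. The part of any of these in the members' differences was not tested.

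**Figure D4:**
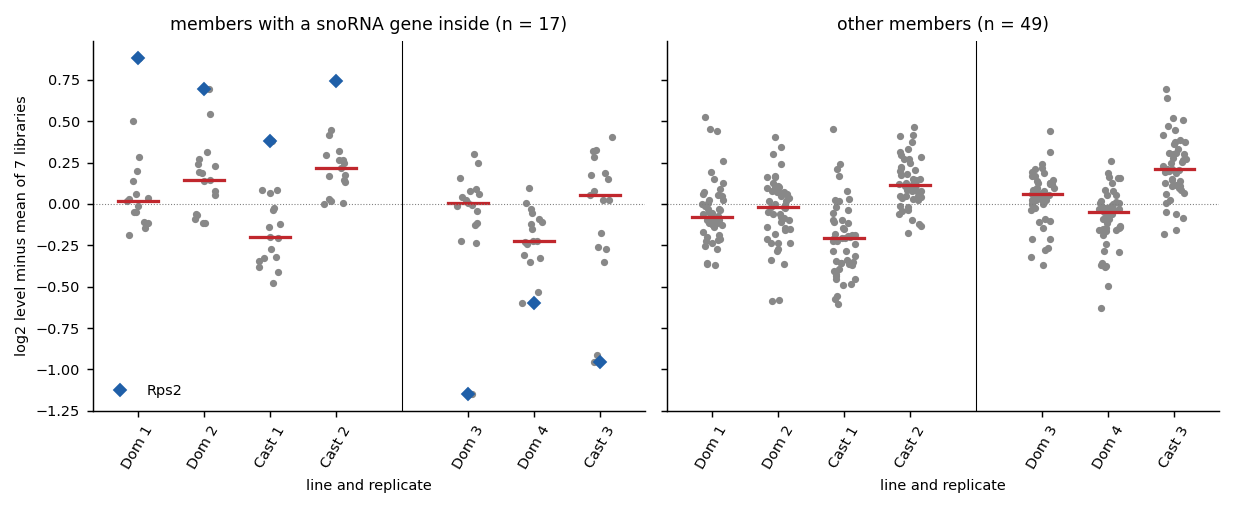
Log2 level of each member in each library minus its mean over the 7 libraries, for the 17 members with a snoRNA gene inside (left) and the 49 others (right), with red bars at the medians and a line between replicates 1 and 2 and replicates 3 and 4. Rps2 (blue) is high in the 4 earlier and low in the 3 later libraries; the median of the other members is lowest in iXist-ChrX-Cast replicate 1 (-0.21) and highest in replicate 3 (0.21).

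Whether the set difference differed between the lines was tested by an interaction term. By edgeR 0 of 66 members were called, with 17 at an unadjusted p under 0.05 (1518 of 15186 over all genes), and DESeq2 called 0. Over all genes edgeR called 0.0132% and DESeq2 0.184%. The members' median interaction was -0.21, with 53 of 66 negative, against -0.02 for all genes and -0.27 for genes under 5 kb. The set difference was thus estimated as more positive in iXist-ChrX-Cast, where the later set is replicate 3 alone. The test was weak, since edgeR found 10% of 1.5-fold and 63% of 2-fold interactions in simulated data, where only genes with higher counts were changed.

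Each member has a Cast and a Dom allele in the same nucleus, and the Cast share of allelic fragments was compared with that of the other autosomal genes. Those gave a pooled Cast share of 46.7% to 47.2% in each library, so equality was set there and not at 50%. At least 10 allelic fragments in 6 libraries were found for 65 members. The median share over members was 47.8 ± 0.669% (SD, n = 7), at 47.9 ± 0.433% in iXist-ChrX-Dom (n = 4) and 47.6 ± 1.01% in iXist-ChrX-Cast (n = 3). Mean shares lay between 40% and 60% for 54 members, above for 1 and below for 10.

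By edgeR 50 of 65 members were called, 30 with a higher Cast and 20 with a higher Dom allele, and over all genes 60.5% were called, 30.3% Cast higher and 30.1% Dom higher. Measured against equal counts, 46 were called, 14 with a higher Cast allele and 32 with a higher Dom allele, so a member is named as Cast or Dom higher only where its mean share lies above 50% or below 46.7%. Against the autosomal reference, large subunit genes had 15 Cast higher and 11 Dom higher of 29, small subunit genes 13 and 4 of 28, and paralogs 2 and 4 of 7. These counts do not use the 50% limit. Several of the small subunit genes counted as Cast higher had a mean share under 50%, such as Rps15a at 48.5% and Rps10 at 48.4%.

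Rpl13a had the highest Cast share. It was 66.7%, 68.3%, 65.4% and 65.6% in iXist-ChrX-Dom and 69.2%, 66.6% and 66.4% in iXist-ChrX-Cast, on 2480 to 5296 allelic fragments. The mean was 66.9 ± 1.38% (SD, n = 7), a log2 allele difference of 1.21 (SE 0.0352, edgeR adjusted p = 1.58e-16). Rpl19 followed at 59.5 ± 2.61% and Rpl4 at 58.3 ± 1.57%, each above the reference in 7 of 7 libraries. The others of the 8 highest were Rpl29 at 56.7 ± 3.59%, Rpl22l1 at 56.3 ± 5.45%, Rpl17 at 56.2 ± 1.10%, Rpl36 at 55.4 ± 1.43% and Rps7 at 54.4 ± 3.43%. Of these 8, 6 belong to the large subunit.

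Rps4l stood at the other end. It had 0 Cast fragments of 97 to 259 allelic ones in every library, 0 of 1290 in all, which allows a share of up to 0.233%. The gene (chr6:148354655-148355596) is a paralog of the X-linked Rps4x. Fragments of near-identical copies could be misassigned, so its value is uncertain. Rpl36al, paralog of the X-linked Rpl36a, was at 23.5 ± 4.06% and ranged from 18.8% to 29.0%, on 60 to 173 allelic fragments. Rpl10l was at 31.1 ± 7.58%, Rps15 at 31.5 ± 3.36%, Rpl10a at 31.9 ± 2.19%, Rpl35a at 32.4 ± 1.34% and Rps19 at 37.0 ± 1.87%, each below the reference in 7 of 7 libraries. Rps19bp1 at 38.8 ± 8.23% had 27 to 61 allelic fragments, an edgeR adjusted p of 0.0497, and lost its call when any of 5 libraries was left out. Rpl11 at 39.9 ± 1.71% and Rps2 at 39.3 ± 5.02% were also under 40%. Rpl3 at 53.4 ± 1.45% and Rps3 at 41.9 ± 0.684% had 3371 to 9434 and 3876 to 8556 allelic fragments. Rps6 at 46.3 ± 1.48% and Rps12 at 46.4 ± 2.78% were among the 15 not called.

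**Figure D5:**
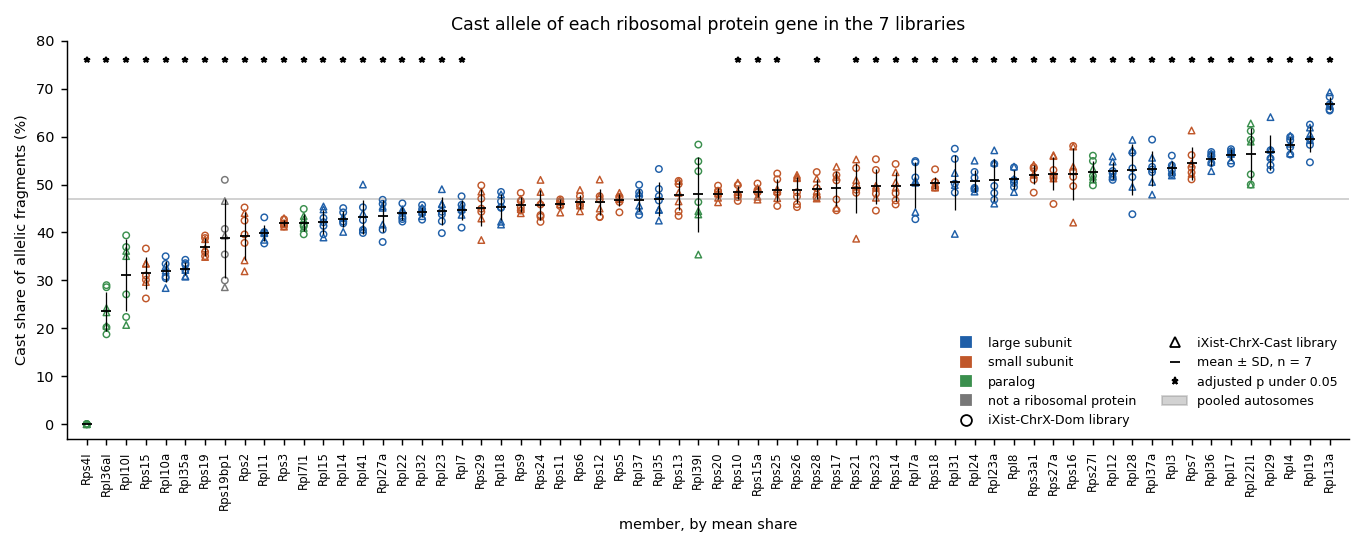
Cast share of allelic fragments, in percent, for 64 of the 65 members tested, with a symbol per library (circles iXist-ChrX-Dom, triangles iXist-ChrX-Cast), a bar at the mean ± SD (n = 7) and a star for an edgeR adjusted p under 0.05. The grey band is the pooled share of the reference autosomes, 46.7% to 47.2%; most members lie within 40% to 60%, with Rpl13a at 66.9% and Rps4l at 0.

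The Cast share was then compared between the lines. By edgeR 0 of 65 members were called, with 9 at an unadjusted p under 0.05 (1303 of 10426 over all genes), and limma called 0. Over all genes edgeR called 1.62% and limma 0.0192%. The members' median difference in log2 allele ratio, iXist-ChrX-Dom minus iXist-ChrX-Cast, was 0.01, the same as over all genes. Rps24, of the small subunit, came nearest, at 45.8%, 42.2%, 43.6% and 43.3% Cast in iXist-ChrX-Dom and 51.0%, 48.4% and 46.3% in iXist-ChrX-Cast, with no overlap. Its difference was -0.27 (SE 0.0735, edgeR adjusted p = 0.0615). With a replicate block, on numbers that may not pair the libraries, it was -0.27 (edgeR adjusted p = 0.0196). Without iXist-ChrX-Dom replicate 1 it was -0.31 (edgeR adjusted p = 0.0328), and without iXist-ChrX-Cast replicate 3 it was -0.35 (edgeR adjusted p = 0.00219). Within replicates 1 and 2 it was called with Rpl31 and Rps27a, and the share of all genes called in that run was not worked out. These 4 alternative runs called Rps24, and the 7 others did not. It was picked after its values were seen. edgeR found 66% of 1.5-fold and 97% of 2-fold differences of this kind in simulated data. Only genes with higher allelic counts were changed there, so the shares may be too high for members with few allelic fragments. Rpl13a lay above the pooled autosomal share in every library of both lines, and Rps4l, Rpl36al, Rpl10l, Rps15, Rpl10a and Rpl35a lay below it in every library, though the order among the latter varied.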

How the data were processed

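ChrRNA-seq of 7 libraries was used. The authors removed ribosomal RNA with Bowtie2 2.3.2, aligned reads with STAR 2.4.2a to mm10 masked at strain polymorphisms, kept uniquely aligned fragments and split them by allele with SNPsplit. The deposited counts are fragments per gene from featureCounts 1.5.2 over whole transcripts, introns included and by strand, in all, Cast and Dom fragments. The authors also deposited tables of the fraction of allelic fragments for X-linked genes, which were used only to learn which count column is Cast (2181 of 2181 values matched when rebuilt from the counts). Cast shares were set against other autosomal genes, which takes up a mapping preference common to all genes, while one particular to a gene was not tested. Of 7 tested feeder markers 0 were called Cast higher and 6 Dom higher by edgeR, with a median log2 allele difference of -1.42. Over all genes 30.3% were called Cast higher and 30.1% Dom higher. The part of feeder RNA in the Cast shares of members was not tested. All columns were used.

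Total counts were filtered (filterByExpr), scaled by TMM and tested two-sided by edgeR 4.0.16 (quasi-likelihood) in R 4.3.3, with Benjamini-Hochberg adjustment over all genes tested and a threshold of 0.05. The replicate set test had line as covariate. Allelic counts were tested in edgeR with a term per library, for genes with at least 10 allelic fragments in 6 libraries on the autosomes used. Alternatives were DESeq2 1.42.0, limma 3.58.1 (offset 0.5), RLE scaling, scaling from those autosomes only, no filter, 50 allelic fragments, equal counts as reference, leaving out genes under 10% or over 90% Cast, subsets of libraries, leaving out each library, a replicate block and a set covariate. Same-numbered libraries of the lines deviated together (r = 0.321, 0.269 and 0.454 for numbers 1 to 3). The difference between replicate sets was not taken out of these values. The number was used as a block in alternative runs only, and the labels state no pairing. Only number 3 correlated best with its own number, numbers 1 and 2 with each other's, so a pairing by number is not established. No replicate pair agreed within sampling noise (chi-square per gene 6.51 to 39.87). Scripts were tested on simulated data. Counting intervals of Cast shares (Wilson, 95%) had half-widths of 0.731 to 17.4 percentage points, and the limit for a count of 0 is 3 counts of the total. Both cover counting error only. Sequences are from GENCODE M21 and RefSeq, and Python 3.11.15 was used.

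Members and lists were chosen with earlier results of these data known. Named were members called between lines (up to 12), the 8 largest rises and falls between sets, the 8 highest and lowest called Cast shares, members called for line difference in share (up to 8), the 5 highest and lowest levels per kb (after the 5 members covered by other entries), and 17 listed genes.

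Values of 1 member are not reported here by name and were left out of the plots that name members; it is kept in all counts.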

Additional observations from a re-analysis of the deposited data

Results flagged for a closer look

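Among the 38 named members, the 4 iXist-ChrX-Dom libraries were searched for a library far from the other 3, in 76 groups of 4 values (levels, Cast shares and their summaries). In 1 group the gap passed Dixon's 95% limit, and chance alone passes about 1 group in 20. The CPM of Rps15 was 57.6, 58.6 and 57.9 in iXist-ChrX-Dom replicates 1, 3 and 4 and 50.1 in replicate 2, a gap of 0.888 of the range. Without that library the log2 difference of Rps15 between the replicate sets was 0.40 (edgeR adjusted p = 0.0397), and without iXist-ChrX-Cast replicate 3, at 80.2 CPM, it was 0.11 (edgeR adjusted p = 0.586).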

How the results depend on the processing

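Between the lines, 0 called members became 1 with DESeq2, with the replicate block and within replicates 1 and 2 only, and 3 with the replicate set as covariate. Leaving out each library gave 0 to 0. Between the sets, 14 became 24 with no filter and 9 within iXist-ChrX-Dom only, and leaving out each library gave 6 to 19. The interaction gave 5 with no filter and 0 to 1 on leaving out a library. For the line difference in allelic share, 0 became 1 with the replicate block and 3 within replicates 1 and 2 only, and leaving out a library gave 0 to 1. The block changed no other call. For the allele difference, limma gave 38, 50 allelic fragments 44, equal counts 46, and leaving out a library 38 to 48. The median Cast share stayed at 47.7% to 48.0%, and the difference in summed share, -0.0162 percentage points, went from -0.0955 to 0.0337 on leaving out a library. Among genes recomputed for the comparison they were called in or came nearest to a call in, no direction reversed. For the allele difference these were only the members with the highest and lowest called Cast shares. The directions of the other called members were not followed one by one, and they depend on the reference. With equal counts as reference, members called Cast higher went from 30 to 14. Rps15a at 48.5% and Rps10 at 48.4% were called Cast higher only relative to the autosomal reference, since both lie under 50%. Of 168 values of set differences 37 lost their call and 131 did not. The share of all genes called was worked out only for the main runs and some DESeq2 and limma runs. Whether counts of members moved more than those of all genes is therefore not known for the other runs. Causes were not tested. Rpl3l, Rpl10l, Rpl39l and Rps19bp1 are limited by depth, and 5 members could not be measured.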
